A study of Mus musculus with 6 samples.

Results

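Glycolysis and hypoxia-response genes were followed in leukemia cells of mice given oil or tamoxifen. The 35 genes were a fixed list of symbols, taken from the 53618 named rows of the count table: 4 transporters of glucose and lactate, the enzymes of the pathway from glucose to lactate, 4 kinases that set the flux, HIF-1 alpha with 2 of its prolyl hydroxylases, and 6 further targets of hypoxia-inducible factor (HIF). The rule names symbols and has no threshold on the values, but the list was drawn up with earlier results of these data known, so shares of its genes beside those of all genes are descriptions. All 35 had a row, and 31 of them were among the 12298 genes that reached a value of 10 in at least 3 libraries and were tested. Hk3, Eno2, Ldhb and Egln3 did not reach that level.

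Spleen cells sorted as GFP+Lin-c-Kit+ were profiled by bulk RNA-seq, with 1 library per mouse and 3 mice per group. The leukemia cells carried Usp18+/f UBCER-Cre and AE9a, a truncated AML1-ETO fusion delivered to fetal liver cells with a GFP retrovirus, and were passed into irradiated recipients. When the recipients were sick they received oil (cells labelled Usp18+/f) or tamoxifen in oil (cells labelled Usp18+/{delta}), and the cells were sorted 3 days after the first injection. Both groups therefore carried the fusion, GFP, a Usp18 allele that was floxed or, by the tamoxifen label, recombined, and a tamoxifen-inducible Cre driven by the ubiquitin C promoter, which is active in all tissues. No group had tamoxifen without the floxed allele, so the agent and the loss of an allele cannot be told apart. The labels give no age or sex for the mice, and the study's methods give young adults of both sexes and wild-type C57BL/6 recipients. Below, oil 1 to 3 and tamoxifen 1 to 3 are the libraries so labelled.

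Glycolysis splits glucose into pyruvate in a chain of enzymes, yields ATP without oxygen, and ends in lactate when lactate dehydrogenase reduces pyruvate. HIF-1, a dimer whose alpha subunit is marked for destruction by prolyl hydroxylases while oxygen is present, binds short DNA elements and raises the transcription of glucose transporters, most glycolytic enzymes and genes of mitophagy, collagen maturation and vessel growth. Many leukemia cells, and blood stem cells in their poorly oxygenated niche, lean on this program.

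The libraries held 19172471 to 23785143 reads. The targeted gene was higher in every tamoxifen library: Usp18 had 217, 214 and 176 normalized counts in oil and 477, 329 and 284 in tamoxifen. This total does not separate the alleles, so the recombination given by the label was not tested. Of 5 genes listed for the leukemia cells, Kit lay between 4687 and 10976 in the 6 libraries, Cd34 between 201 and 1052 and Runx1t1, the gene of ETO, between 1532 and 2097. Runx1, the gene of AML1, was lower in every tamoxifen library, with 12791, 12361 and 11592 in oil and 9996, 11164 and 11220 in tamoxifen. Ptprc, which encodes the blood cell surface protein CD45, lay between 0.898 and 8.08 and was near absent in every one. Genes of red cell and mast cell lineages were abundant in both groups, and the summed level of 9 erythroid markers was 49951 to 70210 in oil and 55333 to 86423 in tamoxifen, with 0 of the 9 higher in every tamoxifen library. The erythroid factor Klf1 had 5248, 5749 and 5794 in oil and 11837, 5413 and 4942 in tamoxifen. The summed level of 6 mast cell and basophil markers was 48417 to 52728 in oil and 40633 to 58939 in tamoxifen, and its genes moved in different ways. The mast cell protease Cpa3 had 3823, 3992 and 4174 in oil and 4074, 7774 and 9431 in tamoxifen, so that tamoxifen 2 and 3 lay above every oil library. Mcpt8, a basophil protease, was the 1 of the 6 that was higher in every tamoxifen library, with 27.8, 26.0 and 40.9 in oil and 60.1, 78.8 and 96.4 in tamoxifen. Ms4a2, a chain of the IgE receptor, was lower in every one, with 17754, 19301 and 19161 in oil and 2965, 16499 and 14036 in tamoxifen. The summed level of 8 T cell markers was 40.5 to 68.7 in oil and 33.6 to 104 in tamoxifen, most of it Lck, at 31.8 to 97.1 in the 6 libraries, while Cd3e, Cd8a and Cd8b1 were at 0 in each. That of 5 NK cell markers was at most 0.965, with Ncr1, Klrb1c, Gzma and Eomes at 0. Of both signalling chains of the B cell receptor, Cd79a had 4.49, 6.75 and 2.79 in oil and 7.67, 1.0 and 8.18 in tamoxifen, which overlapped, and Cd79b had 1.80, 2.89 and 0.929 in oil and 16.6, 5.05 and 6.37 in tamoxifen, which did not. Among other B cell markers Pax5 was at most 0.929 and Ms4a1, which encodes CD20, was at 0. The summed level of 12 macrophage markers was 114 to 268 in oil and 305 to 409 in tamoxifen, with 5 of the 12 higher in every tamoxifen library, and that of 9 neutrophil markers was 15.3 to 28.0 and 40.0 to 70.7, with 5 of the 9 higher and Ly6g at 0. The part of all these markers in the results below was not tested. Tamoxifen 1 stood apart: its median correlation with the other libraries, across genes, was 0.913 against 0.981 to 0.990, mitochondrial genes took 0.00923% of its reads against 1.011% to 1.559%, and its deviation followed GC content. Each comparison is therefore given with and without it.

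Most of the pathway lay lower in tamoxifen 2 and 3 than in oil. In bulk samples, less RNA per cell and fewer cells of a type with much of it cannot be told apart. In both of these libraries 17 of the 31 genes lay below every oil library, against 16.8% of all genes tested, and 2 of 31, Hk1 and Vegfa, lay above every oil library, against 12.6%. The 17 were Gpi1, Aldoa, Tpi1, Pgk1, Pgam1, Eno1, Pkm, Ldha, Pdk1, Pdk3, Pfkfb4, Hif1a, Bnip3, Bnip3l, Ankrd37, P4ha1 and Higd1a, so they held 4 of the 5 enzymes tested between triose phosphate and pyruvate and 5 of the 6 further HIF targets. With tamoxifen 1 included, 9 of 31 lay below every oil library in all 3 tamoxifen libraries (9.69% of all genes) and the same 2 lay above (7.86%). The 9 were Pgk1, Pdk1, Pdk3, Hif1a, Bnip3, Bnip3l, Ankrd37, P4ha1 and Higd1a. The sizes were modest: the median log2 fold change over the 31 genes was -0.15 with all libraries, -0.22 without tamoxifen 1 and -0.060 without tamoxifen 3, where the medians over all genes tested were -0.017 with all libraries and -0.021 without tamoxifen 1.

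No gene of the list passed the test over all 6 libraries. limma (a linear model with moderated variances across all genes) called 0 of 31 at an adjusted p of 0.05, where it called 0.0% of all genes. At an unadjusted p of 0.05 it gave 2 lower, Pgk1 and Bnip3, against 1.24% of all genes lower, and 0 higher against 3.23%. edgeR also called 0 of 31 (0.0% of its genes), as did DESeq2 (0.45%). Without tamoxifen 1, limma again called 0 of 31 (0.333%), but 14 genes were lower at an unadjusted p of 0.05 (6.06% of all genes) and 0 higher (6.04%). The 14 were Pfkl, Aldoa, Tpi1, Pgk1, Pgam1, Eno1, Pkm, Ldha, Pdk1, Pfkfb4, Bnip3, Bnip3l, P4ha1 and Higd1a. The same 5 libraries gave 0 of 31 in edgeR (0.397%) and 4 lower in DESeq2, namely Tpi1, Pgk1, Eno1 and Bnip3, against 0.41% of all genes. When limma weighted each library by its fit, 6 were called lower, Tpi1, Pgk1, Pgam1, Eno1, Ldha and Bnip3, against 2.54%. The weights were 0.038, 0.96 and 3.37 for tamoxifen 1 to 3, so in the tamoxifen group these calls leaned mostly on tamoxifen 3. The p-values measure the spread between these mice, and whether any gene of the pathway passed rested on tamoxifen 1, on the test and on the library weights.

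**Figure D1:**
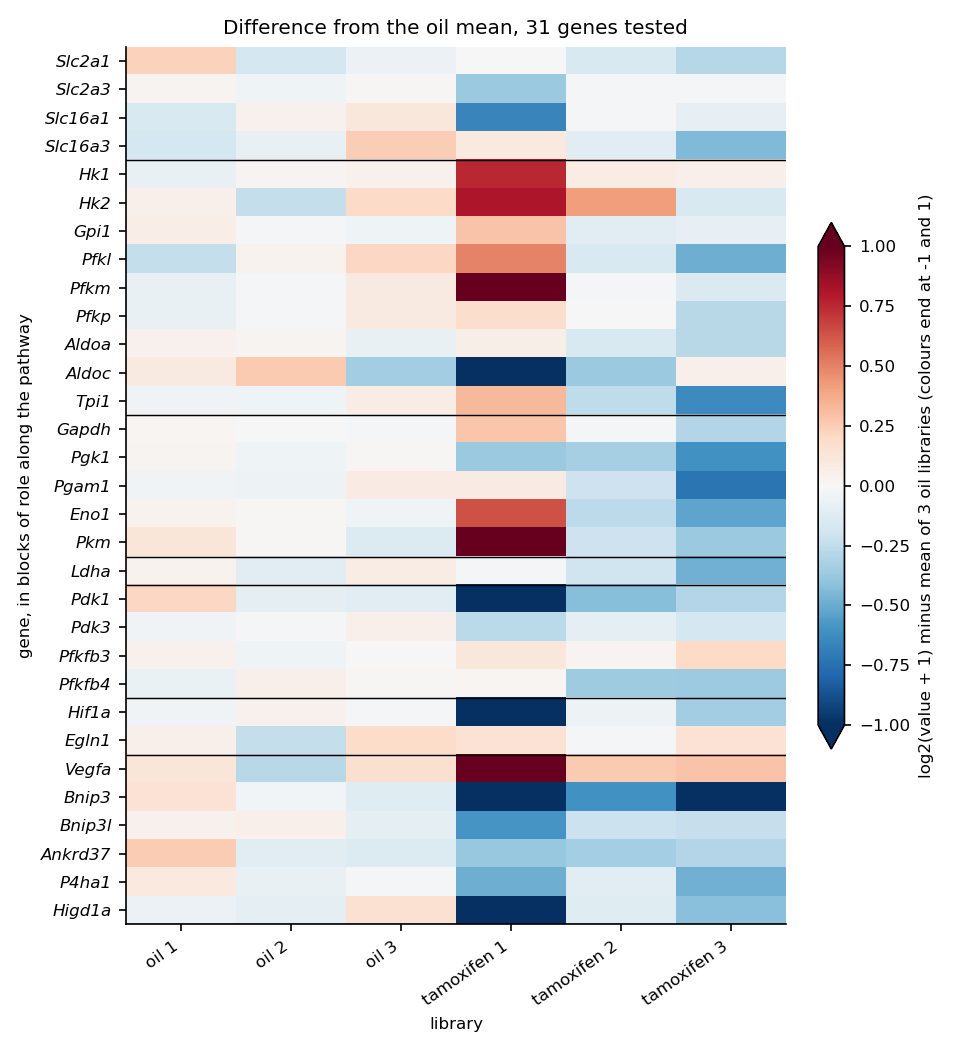
Difference of each of the 31 tested genes from the mean of the 3 oil libraries, on the log2(value + 1) scale, with 1 column per library and black lines between the roles. Blue prevails in tamoxifen 2 and 3, with medians of -0.12 and -0.29, while the column of tamoxifen 1 mixes strong red and strong blue around a median of 0.060; the oil columns have medians between -0.027 and 0.036.

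The 5 sequences below are the DNA in front of the 4 genes that DESeq2 called without tamoxifen 1, and in front of Ldha, a textbook HIF target, shown for the element that HIF-1 is known to bind. Each is the 250 bases before a RefSeq transcription start (build GRCm38.p6), the start nearest to that of the gene model, written 5′ to 3′ on the gene's strand. Capitals mark the core of the hypoxia response element, searched as ACGTG or GCGTG on both strands, so that CACGT and CACGC mark a match on the other strand. Where the palindrome CACGTG occurs, which is also the E-box that other factors bind, it counts as 2 matches. The windows lie at chrX:106186850-106187099 on the plus strand for Pgk1, chr7:138909507-138909756 on the minus strand for Bnip3, chr6:124814159-124814408 on the minus strand for Tpi1, chr4:150236458-150236707 on the plus strand for Eno1 and chr7:46845554-46845803 on the plus strand for Ldha.
Pgk1: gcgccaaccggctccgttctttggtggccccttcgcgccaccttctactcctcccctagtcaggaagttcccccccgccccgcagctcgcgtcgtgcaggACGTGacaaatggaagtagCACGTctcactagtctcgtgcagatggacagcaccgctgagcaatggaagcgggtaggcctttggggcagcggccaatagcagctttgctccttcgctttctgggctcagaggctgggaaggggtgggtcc
Bnip3: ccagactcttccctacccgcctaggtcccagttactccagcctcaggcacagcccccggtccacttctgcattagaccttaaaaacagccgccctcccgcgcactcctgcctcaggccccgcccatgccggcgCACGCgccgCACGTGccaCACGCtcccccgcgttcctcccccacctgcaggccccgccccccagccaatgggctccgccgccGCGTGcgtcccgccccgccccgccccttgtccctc
Tpi1: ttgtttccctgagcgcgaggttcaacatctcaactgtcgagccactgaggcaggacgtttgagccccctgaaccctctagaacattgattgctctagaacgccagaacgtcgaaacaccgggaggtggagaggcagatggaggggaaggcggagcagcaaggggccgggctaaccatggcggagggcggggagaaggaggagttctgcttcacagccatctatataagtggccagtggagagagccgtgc
Eno1: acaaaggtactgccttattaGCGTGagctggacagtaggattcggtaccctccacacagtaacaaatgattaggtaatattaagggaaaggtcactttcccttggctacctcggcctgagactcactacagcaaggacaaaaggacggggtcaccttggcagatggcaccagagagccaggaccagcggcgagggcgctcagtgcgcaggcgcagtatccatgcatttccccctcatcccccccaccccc
Ldha: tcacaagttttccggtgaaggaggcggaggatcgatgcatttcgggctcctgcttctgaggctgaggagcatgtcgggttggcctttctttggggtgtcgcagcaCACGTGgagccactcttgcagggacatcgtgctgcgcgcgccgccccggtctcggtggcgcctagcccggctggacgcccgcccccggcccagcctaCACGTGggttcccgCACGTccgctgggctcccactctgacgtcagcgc

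The window shown holds 2 matches for Pgk1, 5 each for Bnip3 and Ldha, 1 for Eno1 and 0 for Tpi1. Eno1 has 2 further RefSeq starts, whose windows overlap and hold the same 2 matches, and Ldha 1 further start, with 1 match. The start used for Ldha lies 4329 bases from that of the gene model. The windows of Bnip3 and Ldha also hold the E-box, 1 and 2 times. RefSeq gave a promoter for 33 of the 35 genes, 47 in all, and none for Bnip3l and Slc2a3. Windows of the same gene are counted separately even where they overlap and share a match, as in Eno1, Aldoa and Pfkm. A match stood in 38 of the 47 (80.9%), against 55.7% of the promoters of the genes tested and 38.6% of all promoters of the same length. The E-box stood in 12.8%, 8.30% and 6.02%. GC content of these windows had a median of 61.6% for the listed genes and 59.6% for the genes tested. In Eno2, Gpi1 and Tpi1 no promoter held a match, which says only that these letters are not in this window.

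The 7 genes of highest level were enzymes of the pathway from glucose to lactate, and 3 isozymes of the same pathway were among the 4 genes of lowest level. Levels between genes are compared here as normalized counts per kilobase of exon, as means of the oil libraries with SD (n = 3). Gapdh, which oxidises glyceraldehyde phosphate, was highest at 14299 ± 199.7, followed by Ldha at 12236 ± 797. Eno1 at 6702, Aldoa at 6365 and Tpi1 at 5891 came next, and neighbours among these 3 overlapped between oil libraries. Pgk1 at 3868, Pkm at 2712 and Hk1 at 2180 followed, each separate from the one before, and Hk1 overlapped between oil libraries with Bnip3l at 2014. Among the regulators, Pdk3 at 820 and Hif1a at 459 stood in the middle of the order. At the low end of the tested genes stood Pfkfb4 at 64.0, Egln1 at 56.0 and Ankrd37 at 32.9. Ldhb, Hk3, Eno2 and Egln3 were at 1.37 or below, with at most 7 reads in any library for Ldhb and Hk3, 5 for Eno2 and 1 for Egln3. Hk3, the myeloid hexokinase, had 0 to 3.59 normalized counts in oil and 0.909 to 8.95 in tamoxifen, and Eno2, the neuronal enolase, had 0 to 1.86 and 2.56 to 4.55. A count of 3 reads, the limit that a count of 0 allows, equals 2.69 to 3.83 normalized counts, and intervals and limits of this kind cover counting error only.

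**Figure D2:**
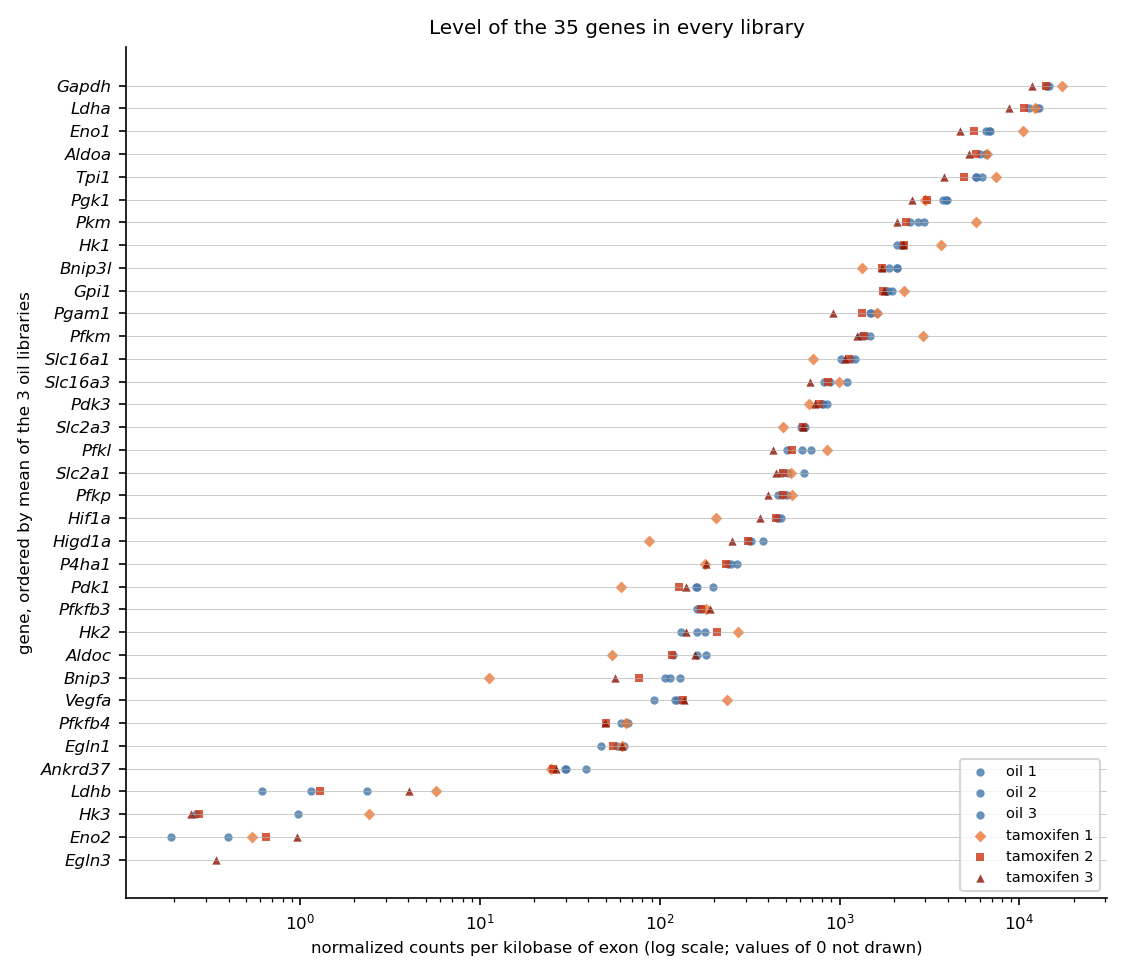
Normalized counts per kilobase of exon of the 35 genes in each of the 6 libraries, on a log axis, in the order of the oil mean. Levels run from 14299 for Gapdh down to 32.9 for Ankrd37 and then drop to 1.37 or below for the last 4 genes, and among the tested genes Bnip3 and Higd1a show the farthest displaced points, from tamoxifen 1.

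One isozyme carried most steps in both groups. Hk1 made up 91.7% to 94.4% of the summed level of Hk1, Hk2 and Hk3 per kilobase, with Hk2 at 5.58% to 8.31%. Eno1 made up 99.979% or more of the pair Eno1 and Eno2, and Ldha at least 99.95% of the pair Ldha and Ldhb. Aldoa made up 97.1% to 99.2% of the aldolase pair. The isozymes Eno3 and Ldhc were not on the list and not in these shares. They had 163 to 284 and 76.1 to 165 normalized counts in the 6 libraries. Pyruvate kinase has no share here, as Pklr was not on the list either. Pklr had 1955, 2547 and 2594 in oil and 4201, 2272 and 2208 in tamoxifen. Phosphofructokinase was mixed: Pfkm, the muscle form, held 54.9% to 57.6% in oil, 57.2% and 60.2% in tamoxifen 2 and 3 and 67.7% in tamoxifen 1. Together the 35 genes took 1.31%, 1.27% and 1.28% of the named reads in oil 1 to 3, and 1.40%, 1.17% and 1.05% in tamoxifen 1 to 3. The share was thus highest in tamoxifen 1 and lay below every oil library in tamoxifen 2 and 3.

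None of the 4 transporters was called by limma. Slc2a1, the basal glucose transporter GLUT1, had 2210, 1674 and 1813 normalized counts in oil and 1876, 1692 and 1544 in tamoxifen. Its groups overlapped, and limma gave -0.15 on the log2 scale with a standard error (SE) of 0.17 and an adjusted p of 0.681, or -0.22 ± 0.12 (SE) without tamoxifen 1. The difference was -0.036 without oil 1, -0.24 without oil 2, -0.082 without tamoxifen 3 and -0.33 with a correction for GC content. Slc2a3, the high-affinity GLUT3, lay between 4421 and 4661 in oil and had 3530, 4518 and 4533 in tamoxifen, so that tamoxifen 1 alone left the oil range. Slc16a1, the lactate carrier MCT1, had the same shape, with 4492 to 5412 in oil and 3162, 4958 and 4727. Slc16a3, the lactate exporter MCT4 and a HIF target, had 4372, 4684 and 5846 in oil and 5263, 4554 and 3636 in tamoxifen. In none of the 4 did tamoxifen 2 and 3 both leave the oil range.

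In the upper part of the pathway, from glucose to triose phosphate, 9 of 10 genes were tested and 5 had a negative log2 fold change, 7 of 9 without tamoxifen 1. Hk1, which traps glucose in the cell as glucose phosphate, had 17702, 18952 and 19137 in oil and 31387, 19551 and 19231 in tamoxifen. All 3 tamoxifen values were above oil, but tamoxifen 2 and 3 each exceeded the highest oil library by less than the spread of the oil libraries. Its log2 fold change was 0.29 ± 0.22 (SE) with a limma adjusted p of 0.666, and 0.061 ± 0.081 without tamoxifen 1. Hk2, the inducible hexokinase and a HIF target, had 959, 784 and 1061 against 1622, 1240 and 837, a split among the tamoxifen libraries.

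Gpi1 interconverts glucose and fructose phosphate. It had 11730 to 12654 in oil and 14744, 11199 and 11436 in tamoxifen, so its sign turned with tamoxifen 1: 0.031 on the log2 scale with it and -0.096 without. Pfkm turned as well, from 0.30 to -0.082, with 9723 in tamoxifen 1 and 4170 to 4906 in the other 5 libraries. Pfkl, the liver-type phosphofructokinase at the committed step, had 3387, 4096 and 4621 in oil and 5661, 3607 and 2847 in tamoxifen. Its log2 fold change was -0.047 over 6 libraries, -0.32 without tamoxifen 1 and 0.17 without tamoxifen 3. Pfkp, the platelet type, had 6101 to 6867 in oil and 7280, 6456 and 5324, and its gene model shares sequence with Pitrm1, whose level was 76.2% of its own, so that part of its reads may belong to that neighbour.

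Aldolase and triose phosphate isomerase close the upper part. Aldoa, the main aldolase, had 19078, 18882 and 17624 in oil and 19301, 16702 and 15317 in tamoxifen. Tamoxifen 2 and 3 were below all oil libraries and tamoxifen 1 above them. Aldoc, the brain-type aldolase, was far lower, with 526, 592 and 388 in oil and 176, 382 and 513 in tamoxifen, a log2 fold change of -0.60 ± 0.41 (SE, limma adjusted p 0.666) that was -0.16 ± 0.19 without tamoxifen 1 and -0.93 without tamoxifen 3. Tpi1 (chr6:124810586-124814296, minus strand), which equilibrates the 2 triose phosphates, had 15845, 15764 and 17047 in oil and 20274, 13576 and 10451 in tamoxifen. Here too tamoxifen 1 lay above and the other 2 below. Without tamoxifen 1 the tamoxifen mean was 0.741 times the oil mean, with a log2 fold change of -0.44 ± 0.11 (SE) and an adjusted p of 0.181 in limma against 0.00931 in DESeq2. Over all 6 libraries the log2 fold change was -0.19, and without tamoxifen 3 it was 0.034.

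The lower part, from triose phosphate to pyruvate, held 5 tested genes. All 5 had a negative log2 fold change without tamoxifen 1, with a median of -0.39, and 4 of the 5 a negative one with it. Gapdh, often used as a control gene, had 59995, 58921 and 58372 in oil and 71621, 58391 and 48267 in tamoxifen. Tamoxifen 2 lay within the oil range, tamoxifen 1 above it and tamoxifen 3 below. The log2 fold change was -0.011 ± 0.19 (SE, limma adjusted p 0.98), -0.15 ± 0.11 without tamoxifen 1 and 0.13 without tamoxifen 3, and with TMM scaling in place of the deposited size factors it was 0.0039, so no direction can be given for it.

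Pgk1 (chrX:106187100-106203699, plus strand), phosphoglycerate kinase, catalyses the first step that yields ATP. It had 8865, 8421 and 8756 in oil and 6702, 6888 and 5700 in tamoxifen. The groups did not overlap, and the means were 8680 ± 232 and 6430 ± 639 (SD, n = 3). It was the gene of the list with the smallest p: a log2 fold change of -0.44 ± 0.14 (SE), p of 0.0168 and adjusted p of 0.666 in limma. Without tamoxifen 1 these were -0.47 ± 0.092, 0.000552 and 0.0881, and DESeq2 gave an adjusted p of 0.000527. The size of the difference hardly depended on the library left out, with log2 fold changes from -0.49 to -0.35 over the 6 fits that left 1 library out.

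Pgam1, phosphoglycerate mutase, had 2968, 2937 and 3206 in oil and 3213, 2636 and 1831 in tamoxifen, where tamoxifen 3 was the lowest by far. Eno1 (chr4:150236721-150248879, plus strand), enolase, had 36942, 36249 and 34960 in oil and 56144, 30117 and 24994 in tamoxifen. Tamoxifen 1 lay above and the others below all oil libraries. Its log2 fold change was -0.049 over 6 libraries, -0.39 ± 0.10 (SE) without tamoxifen 1 and 0.19 without tamoxifen 3, with adjusted p-values of 0.941 and 0.181 in limma and 0.00665 in DESeq2 without tamoxifen 1. Pkm, pyruvate kinase, which makes pyruvate and ATP, had 14692, 13671 and 12319 in oil and 28843, 11736 and 10454 in tamoxifen. Its sign was set by tamoxifen 1, with a log2 fold change of 0.17 ± 0.38 (SE, limma adjusted p 0.824) with it and -0.29 ± 0.097 (adjusted p 0.283) without. It was 0.36 without tamoxifen 2 and 0.44 without tamoxifen 3.

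Ldha, the muscle-type lactate dehydrogenase subunit that favours lactate formation, had 41483, 37512 and 42506 in oil and 40215, 35154 and 29031 in tamoxifen. Tamoxifen 2 and 3 lay below every oil library and tamoxifen 1 within them. The means were 40500.0 ± 2638 and 34800.0 ± 5601 (SD, n = 3), and the difference was -0.23 ± 0.17 on the log2 scale (SE, limma adjusted p 0.666) and -0.34 ± 0.11 (adjusted p 0.268) without tamoxifen 1. Without tamoxifen 3 it was -0.11. Ldhb, the heart-type subunit, had 0.965 to 3.71 in oil and 2.02 to 8.95 in tamoxifen, which is at most 7 reads.

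**Figure D3:**
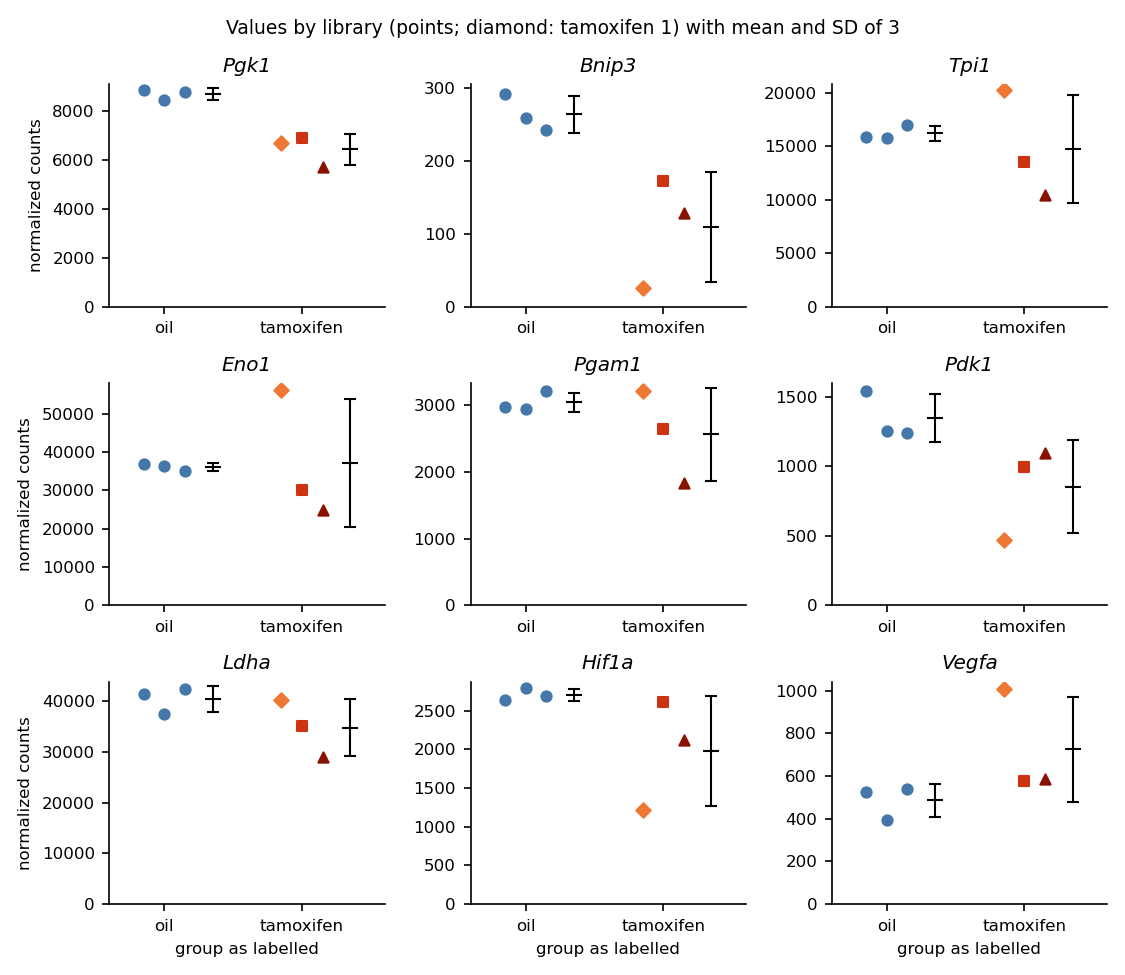
Normalized counts of the 6 genes with the smallest limma p without tamoxifen 1 and of Ldha, Hif1a and Vegfa, each library a point (diamond: tamoxifen 1) beside the group mean and SD (n = 3), with every axis from 0. Pgk1, Bnip3, Pdk1 and Hif1a do not overlap between the groups and Vegfa is above oil in all 3 tamoxifen libraries, while in Tpi1, Eno1 and Pgam1 the diamond lies above the oil points and the other 2 tamoxifen libraries below them.

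Among the kinases that set the flux, Pdk1 and Pdk3 phosphorylate and switch off pyruvate dehydrogenase. Pdk1, a HIF target, had 1545, 1256 and 1241 in oil and 472, 997 and 1094 in tamoxifen. The groups did not overlap, with a log2 fold change of -0.74 ± 0.34 (SE, limma adjusted p 0.666) that was -0.36 ± 0.11 (adjusted p 0.250) without tamoxifen 1. Pdk3 had 2053, 2067 and 2180 against 1738, 1962 and 1858, also without overlap, with -0.18 ± 0.13 (SE, limma adjusted p 0.666) and -0.14 ± 0.076 without tamoxifen 1.

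Pfkfb3 and Pfkfb4 make fructose bisphosphate signals that set phosphofructokinase activity. Pfkfb3, mainly a kinase, had 1294, 1219 and 1260 in oil and 1357, 1279 and 1441 in tamoxifen. Its groups overlapped, and the log2 fold change was 0.11 ± 0.13 (SE, limma adjusted p 0.696), or 0.067 without tamoxifen 3. Pfkfb4 had 298, 323 and 315 in oil and 317, 243 and 242 in tamoxifen. Tamoxifen 1 lay within the oil range and the other two below it. Of the level of the pair per kilobase, Pfkfb3 made up 70.9% to 73.7% in oil and 73.4%, 77.2% and 79.3% in tamoxifen 1 to 3, so that tamoxifen 2 and 3 lay above every oil library. Pfkfb4 without tamoxifen 1 had a log2 fold change of -0.36 ± 0.12 (SE) and a limma adjusted p of 0.278.

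Hif1a, the oxygen-regulated subunit of HIF-1, had 2639, 2790 and 2683 in oil and 1210, 2613 and 2123 in tamoxifen. The groups did not overlap, but tamoxifen 2 lay below the lowest oil library by less than the oil spread. Its log2 fold change was -0.52 ± 0.29 (SE, limma adjusted p 0.666), and -0.20 ± 0.096 (adjusted p 0.448) without tamoxifen 1. Regulation of the subunit is mostly by protein stability, which these values do not measure. Egln1, the prolyl hydroxylase PHD2, had 207, 169 and 227 in oil and 221, 197 and 221 in tamoxifen, within the oil range throughout. Egln3, a prolyl hydroxylase that HIF itself induces, had 0 reads in 5 libraries and 1 in tamoxifen 3. At this depth no level of it could be given for either group.

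The further HIF targets included Bnip3, the gene with the largest log2 fold change of the 31 tested, with and without tamoxifen 1. Bnip3 (chr7:138890836-138909519, minus strand), a mitophagy receptor of the outer mitochondrial membrane, had 292, 259 and 242 in oil and 25.6, 173 and 128 in tamoxifen. All tamoxifen libraries lay below all oil libraries, and the lowest by far was tamoxifen 1. The means were 264 ± 25.3 and 109 ± 75.5 (SD, n = 3), or -1.65 ± 0.68 (SE) on the log2 scale with p of 0.0479 and adjusted p of 0.666 in limma. Without tamoxifen 1 the tamoxifen mean was 0.569 times the oil mean, with -0.82 ± 0.17 (SE) and an adjusted p of 0.104, and DESeq2 gave 0.0155. Sequence at least 95% identical over 150 bases was found in 5 other genes, whose summed level was 3.28% of that of Bnip3.

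Bnip3l, its paralog NIX, which clears mitochondria from maturing red cells, was far more abundant, with 8019, 8049 and 7250 in oil and 5147, 6674 and 6609 in tamoxifen. Its groups did not overlap either, with a log2 fold change of -0.35 ± 0.16 (SE, limma adjusted p 0.666) and -0.23 ± 0.078 (adjusted p 0.294) without tamoxifen 1. With a correction for GC content its log2 fold change was 0.020, so the direction over all 6 libraries was not kept. Bnip3 made up 5.84%, 5.19% and 5.39% of the pair per kilobase in oil and 0.839%, 4.22% and 3.20% in tamoxifen.

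Higd1a, a small mitochondrial protein induced by hypoxia, had 978, 958 and 1134 in oil and 263, 939 and 764 in tamoxifen. Tamoxifen 2 was just under the lowest oil library, and the log2 fold change of -0.83 ± 0.47 (SE, limma adjusted p 0.666) shrank to -0.27 ± 0.12 (adjusted p 0.404) without tamoxifen 1. P4ha1, the catalytic subunit of collagen prolyl hydroxylase, had 1104, 979 and 1021 against 735, 961 and 742, a log2 fold change of -0.36 ± 0.17 (SE, limma adjusted p 0.666) and -0.29 ± 0.12 (adjusted p 0.376) without tamoxifen 1. Ankrd37 had 60.2, 46.3 and 45.5 against 38.3, 39.4 and 40.9, all below oil, with -0.34 ± 0.25 (SE, limma adjusted p 0.666) and -0.32 ± 0.25 without tamoxifen 1, and -0.21 without oil 1.

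Vegfa, the secreted growth factor of blood vessels, went the other way. It had 524, 396 and 537 in oil and 1010, 577 and 587 in tamoxifen, all above oil, with means of 485 ± 78.0 and 725 ± 247 (SD, n = 3). On the log2 scale the difference was 0.54 ± 0.27 (SE, limma adjusted p 0.666), and 0.28 ± 0.14 (adjusted p 0.474) without tamoxifen 1. Its log2 fold change was positive in each of the 19 alternatives computed, from 0.28 to 0.68.

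**Figure D4:**
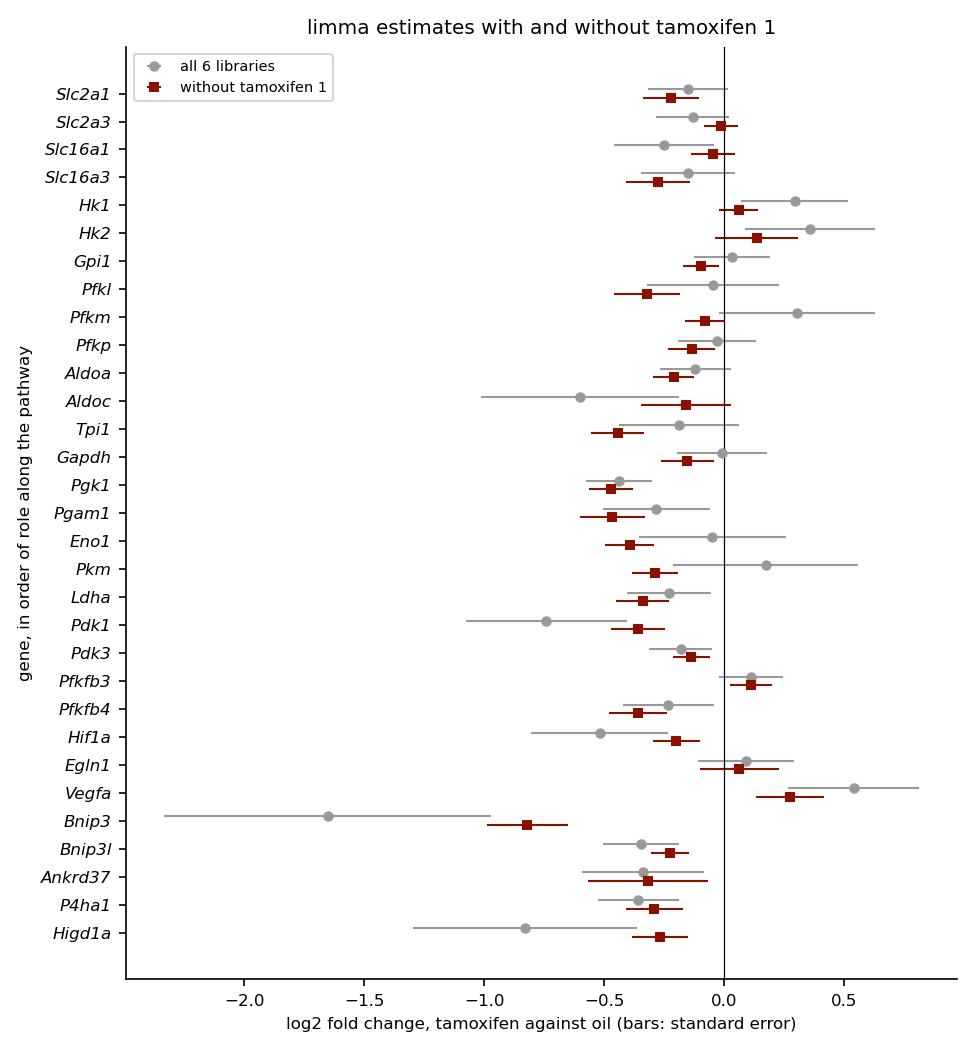
log2 fold change of tamoxifen against oil for the 31 tested genes with its standard error, from limma over all 6 libraries (grey circles) and without tamoxifen 1 (dark squares). Without tamoxifen 1 the squares of 26 genes lie left of 0 and those of 5 right of it, the bars are shorter, and Bnip3 at -0.82 lies farthest from 0.

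Tamoxifen 1 differed from the other tamoxifen libraries gene by gene. It lay above every oil library in 14 of the 31 genes (44.5% of all genes) and below in 12 (44.8%). Tamoxifen 2 was above in 3 (22.9%) and below in 18 (26.7%), and tamoxifen 3 was above in 3 (27.2%) and below in 23 (37.9%). Across the 31 genes, which share the library, Spearman's correlation of the deviation from the oil mean with the GC content of the exons was 0.68 in tamoxifen 1, -0.052 in tamoxifen 2 and -0.086 in tamoxifen 3, beside 0.67, -0.0049 and 0.089 over the 12150 tested genes with a GC value. In tamoxifen 1 the 10 genes below 50% GC had a median deviation of -0.54 (9 of 10 below oil) and the 21 others of 0.15 (16 of 21 above). Over all genes the medians were -0.64 (4742 of 6295 below) and 0.58 (4541 of 5855 above). In tamoxifen 2 and 3 both classes were negative, at -0.10 and -0.15, and at -0.28 and -0.29. Genes at either end were Bnip3 with 41.6% GC and Hif1a with 41.3%, both low in tamoxifen 1, and Pkm with 57.7% and Eno1 with 57.4%, both high. With the GC correction, limma called 0 of the 31 genes and the median log2 fold change was -0.20.

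**Figure D5:**
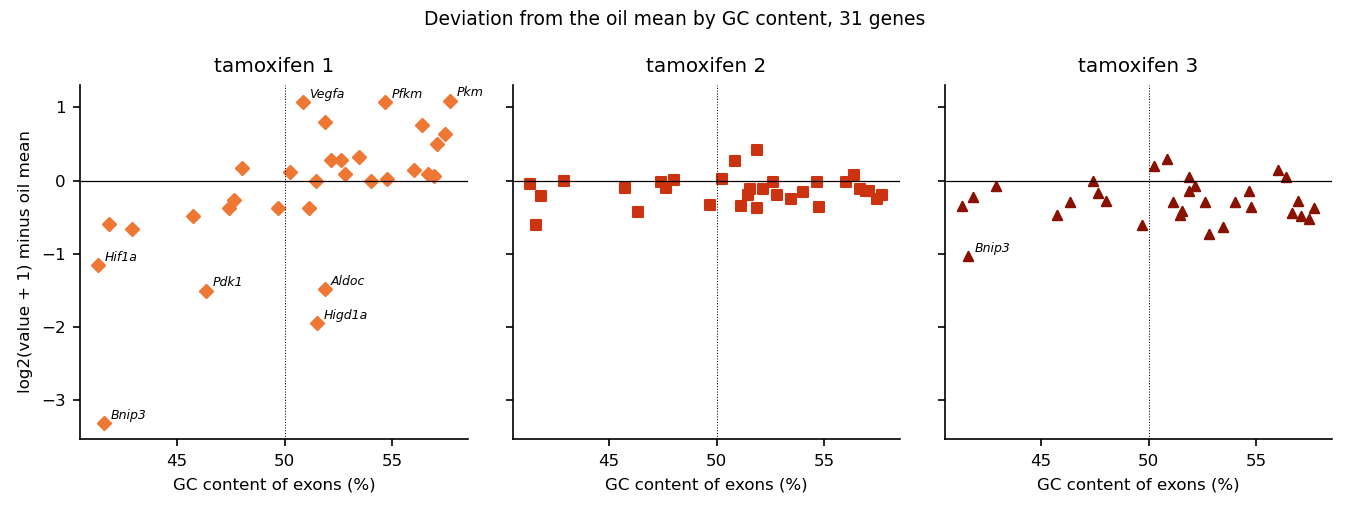
Deviation from the oil mean, as a difference of log2(value + 1), against the GC content of the exons in percent for the 31 tested genes, 1 panel per tamoxifen library, with a dotted line at 50% GC. The points climb with GC in tamoxifen 1 (Spearman's correlation 0.68, and 0.67 over all genes) and lie in a flat band in tamoxifen 2 and 3 (-0.052 and -0.086).

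Tamoxifen 3 lay lower than tamoxifen 2 in 23 of the 31 genes, as it did in 56.5% of all genes tested. The median deviation from the oil mean was -0.12 in tamoxifen 2 and -0.29 in tamoxifen 3, and the 4 steepest steps down between them, chosen after the values were seen, were in Hk2, Pgam1, Bnip3 and Tpi1.

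Neighbouring pathways were taken from 5 further lists, of whose genes limma called 0 over 6 libraries, edgeR 0 and DESeq2 3. Over all genes tested the shares called were 0.0%, 0.0% and 0.45%. Of 34 other genes of glycolysis and pyruvate use, 26 were tested, 1 was lower at an unadjusted p of 0.05 (Bsg; 1.24% of all genes), and 15 had a negative and 11 a positive log2 fold change with a median of -0.027 that was 0.052 without tamoxifen 2. In that list Bsg, the chaperone of the lactate carriers, was lowest in p, with 8550, 9414 and 9932 in oil and 5744, 8386 and 6783 in tamoxifen, followed by Hkdc1 and Pdhx. The pentose phosphate pathway had 6 positive of 7, 0 at an unadjusted p of 0.05, a median of 0.25 that was -0.013 without tamoxifen 1, and Rpe, Pgls and Pgd as the genes of smallest p. Among 8 genes of glycogen and hexose side branches, 4 were positive, 4 negative and 0 at an unadjusted p of 0.05, with a median of -0.15 that was -0.086 without tamoxifen 1 and -0.074 without tamoxifen 3. Pygl, glycogen phosphorylase, had 5797, 5967 and 5391 in oil and 4811, 4835 and 4233 in tamoxifen, ahead of Gfpt1 and Ugp2. Of 16 genes of oxygen sensing 11 were tested, with 0 at an unadjusted p of 0.05 and a median of -0.021 that was -0.077 without tamoxifen 1, 0.048 without tamoxifen 3 and -0.12 with library weights. Vhl, the adaptor that binds hydroxylated HIF-1 alpha, had 1261, 1383 and 1371 against 890, 1263 and 1093, ahead of Crebbp and Rbx1.

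A second list of 32 HIF targets, 25 of them tested, held both directions and shared Pfkfb2 with the other genes of glycolysis. It had 12 positive and 13 negative log2 fold changes with a median of -0.16. That median was nearer 0 without oil 1 (-0.00067), oil 2 (-0.072), oil 3 (-0.038), tamoxifen 1 (-0.018) or tamoxifen 3 (-0.020), with the GC correction (-0.018) and with library weights (-0.039). In all, 4 were higher at an unadjusted p of 0.05, beside 3.23% of all genes tested. Of the 25, 5 lay above every oil library in all 3 tamoxifen libraries and 1 below, beside 7.86% and 9.69% of all genes. Ddit4, a hypoxia- and stress-induced inhibitor of mTORC1, had 504, 418 and 408 in oil and 2007, 928 and 1213 in tamoxifen, with a log2 fold change of 1.57 ± 0.30 (SE, limma adjusted p 0.580). Without tamoxifen 1 it rose by 1.26 ± 0.14 on that scale with an adjusted p of 0.00544, and it was the 1 gene of the 5 lists to pass there. Stc2, a secreted glycoprotein, had 8.08, 2.89 and 6.5 against 40.9, 30.3 and 70.9, and Hmox1, heme oxygenase, had 64.7, 35.7 and 31.6 against 115, 110 and 149. Both lay above oil without overlap, with limma adjusted p-values of 0.576 and 0.666, and 0.0755 and 0.0968 without tamoxifen 1.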

How the data were processed

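The gene list, its roles and the other lists were chosen with earlier results of these data known. Per the study's methods and the submitters' processing notes, the authors aligned reads with STAR (mm10) and used DESeq2; versions, annotation and strand setting are not given in the sources used here, and the labels name a tagmentation kit. The deposited table is named counts, but what the authors put in it is a normalized signal, each read count over its library's size factor. For every library 100% of values were whole multiples (within 0.001) of the value of 1 read, 0.898 to 1.28, and division recovered the reads. Rows without a gene name (1832 of 55450, 0.0400% to 0.0614% of reads) were left out. The test was limma 3.58.1 (R 4.3.3) on log2(value + 1) with a variance trend, on genes that reached 10 in at least 3 libraries, two-sided, with Benjamini-Hochberg adjustment over all genes tested. edgeR 4.0.16 and DESeq2 1.42.0 on recovered reads were alternatives, as were TMM scaling, pseudocounts of 0.5 and 5, other filters, the replicate block, each library left out, a GC correction (loess span 0.3) and library weights. Both count tools without tamoxifen 1 were added after seeing the data. The fits were tested on simulated counts with large changes and no outlying library, a setting unlike these data. Coordinates, exon length and GC content came from GENCODE vM21 (GRCm38) by symbol (52048 of 53618 rows). All 35 genes are named, the 12 of smallest limma p and Slc2a1, Ldha, Pkm, Gapdh, Hif1a and Vegfa with full statistics. Of each other list up to 3 of smallest p are named, besides Pfkfb2, Eno3, Ldhc and Pklr. No replicate pair agreed within sampling noise. The reads carry no molecular identifiers and may repeat molecules. The result of 1 cell type marker is not reported here.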

Additional observations from a re-analysis of the deposited data

How the results depend on the processing

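Over 6 libraries limma called 0 genes of the list, as it did with each library left out (range 0 to 0), TMM scaling, both pseudocounts, both filters, the study's own limits, the GC correction and edgeR. DESeq2 without tamoxifen 1 called 4 and library weights called 6. The genes of the 5 other lists numbered 0 past the threshold, 0 to 1 with a library left out (1 without tamoxifen 1), 3 in DESeq2, 2 in edgeR and 4 in DESeq2 without tamoxifen 1, and 9 with library weights. The median log2 fold change of the list was negative throughout, from -0.22 (without tamoxifen 1) to -0.060 (without tamoxifen 3) with a library left out. Of 31 genes, 19 kept their sign in all 19 alternatives and 12 did not.

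Same-numbered libraries correlated at -0.024, 0.061 and -0.15 in their deviations from the group means, and differently numbered ones at -0.085 to 0.13. Tamoxifen 1 stood apart and enters the tamoxifen mean, so these values cannot decide whether the replicate numbers pair the mice. The fit with the replicate block called 0 genes of the list and 0 of the other lists.

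Signs turned with a library left out for Egln1 (-0.030 to 0.18), Eno1 (-0.39 to 0.19), Gapdh (-0.15 to 0.13), Gpi1 (-0.096 to 0.10), Pfkl (-0.32 to 0.17), Pfkm (-0.082 to 0.53), Pfkp (-0.14 to 0.091), Pkm (-0.29 to 0.44) and Tpi1 (-0.44 to 0.034). With the GC correction, alone and with the replicate block, the log2 fold change was -0.087 for Gpi1, 0.0088 for Pfkp, -0.11 for Pkm, 0.062 for Slc16a1, -0.14 for Egln1 and 0.020 for Bnip3l. Library weights gave -0.081 for Gpi1, -0.10 for Pfkm and -0.33 for Pkm. edgeR gave 0.012 for Pfkl, 0.020 for Gapdh and 0.050 for Eno1, DESeq2 gave 0.0068 for Gapdh and 0.039 for Eno1, and TMM scaling gave 0.0039 for Gapdh. Without tamoxifen 1, edgeR and DESeq2 gave 0.011 and 0.00079 for Slc2a3, -0.073 and -0.084 for Gpi1, -0.059 and -0.069 for Pfkm, and -0.27 and -0.28 for Pkm. The cause of these turns was not tested.

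Depth limits Ldhb, Hk3, Eno2 and Egln3, which had at most 7 reads in any library. There were 3 mice per group and 1 library stood apart.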
